A study of Mus musculus with 11 samples.

Results

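The 10 genes described here encode receptor chains for interleukins and interferons: Il10ra, Il10rb, Ifngr1, Ifnar1, Ifnar2, Il4ra, Il13ra1, Il6ra, Il6st and Il7r. They were taken by symbol from a table of 39017 genes and compared between spinal cord microglia with and without a conditional deletion of Kdm6a, which encodes an enzyme that removes methyl groups from lysine 27 of histone H3 and lies on the X chromosome. The knockout group (cKO) had 5 libraries, named cKO2, cKO4, cKO5, cKO6 and cKO7, and the wild-type group (WT) had 6, named WT8, WT9, WT13, WT15, WT16 and WT17. All came from healthy female C57BL/6 mice that carried RiboTag and Tmem119-Cre/ERT2, the WT mice included. RiboTag is an allele in which Cre adds a tag to a ribosomal protein, so that ribosomes and the mRNA on them can be pulled down from the cells in which Cre was active. In cKO the same Cre also deleted Kdm6a, so both the tag and the deletion were limited to cells in which the Tmem119 promoter drove a tamoxifen-dependent recombinase. The sources used here give neither age, nor tamoxifen dosing, nor the Kdm6a allele.

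These receptors are built from chains that sit in the cell membrane and have no kinase domain of their own. A cytokine brings the chains together, the Janus kinases bound to the tails of the signalling chains are activated, and STAT transcription factors are phosphorylated and move to the nucleus. In macrophages, microglia included, IL-10 acts mainly through STAT3 and restrains inflammatory genes, IL-6 also acts through STAT3, IL-4 and IL-13 act through STAT6, and interferons induce antiviral and antigen-presentation genes. Several chains are shared between cytokines: Il10rb with other cytokines of the IL-10 family, Il6st (gp130) with the whole IL-6 family, and Il4ra with both IL-4 and IL-13.

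Total counts ran from 28620584 to 40943004 per library. Summed microglial marker levels, over 10 genes, were 26285 to 28370 CPM (counts scaled by sequencing depth) in cKO libraries, against 19290 to 24452 CPM in WT libraries, and 7 of these 10 genes were past the threshold as higher in cKO. The WT libraries were not alike: WT13, WT16 and WT17 had summed neuronal markers of 1773 to 2634 CPM, against 1058 to 1288 CPM in WT8, WT9 and WT15, while cKO libraries had 1007 to 1230 CPM. The microglial sum was 19290 to 21392 CPM in WT13, WT16 and WT17 and 23246 to 24452 CPM in the other WT libraries. Summed endothelial markers were 41.4 to 51.4 CPM in cKO libraries and 47.6 to 158 CPM in WT libraries. Of these markers, 2 of 9 tested genes were lower in cKO and Cldn5 was at 0. Apart from an alternative fit with neuronal, astrocyte and oligodendrocyte markers as a covariate, the part of other cell types in the results below was not tested. For the receptor chains and the genes of the signalling lists named below, values without WT13, WT16 and WT17 are given wherever they change the call. For other genes named below they are not given. Kdm6a itself had 6.39, 7.31, 7.73, 6.29 and 3.80 CPM in the 5 cKO libraries by ascending library number, against 12.03, 10.37, 7.46, 7.24, 10.37 and 10.08 CPM in the 6 WT libraries, an order kept for every list of values below. The groups overlapped, and the log2 fold change of Kdm6a was -0.61 (SE 0.25, edgeR adjusted p = 0.193), so the deletion was not past the threshold at the level of whole-gene counts.

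Of the 10 receptor chains, 2 rose in cKO microglia: Il10ra, the ligand-binding chain for IL-10, by 1.26-fold, and Ifngr1, the ligand-binding chain for IFN-γ, by 1.24-fold. The other 8 did not pass the threshold, an adjusted p of 0.05 in edgeR's quasi-likelihood test, and 7 of those 8 had a log2 fold change smaller than 0.2 in size. Il7r had the largest difference, 7.25 ± 3.2 CPM in cKO and 12.9 ± 1.29 CPM in WT (SD, n = 5 and 6), and its groups did not overlap, but it missed the threshold over all genes. The 2 higher chains stand beside 1.86% of the 16025 tested genes that were higher by the same rule; no chain was called lower, against 2.43% of genes (1 chain was lower at an unadjusted p under 0.05, and DESeq2 called 0 chains lower, against 5.25% of genes, and limma-voom 0, against 1.62%). Called chains in either direction were 20% of the list, against 4.29% of all tested genes. The chains were chosen with earlier results of these data known, so this share carries no test. The list's median log2 fold change was -0.01 and that of all tested genes was also -0.01, with 5 chains positive and 5 negative. Of the 10 microglial markers, 7 were called higher, and the median log2 fold change of the 10 was 0.36, beside 0.33 for Il10ra and 0.31 for Ifngr1. All these values include WT13, WT16 and WT17, and for the markers no values without them are given. In pulled-down RNA from many cells, fewer cells of a type and less RNA per cell cannot be told apart, and this holds for every level below.

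**Figure D1:**
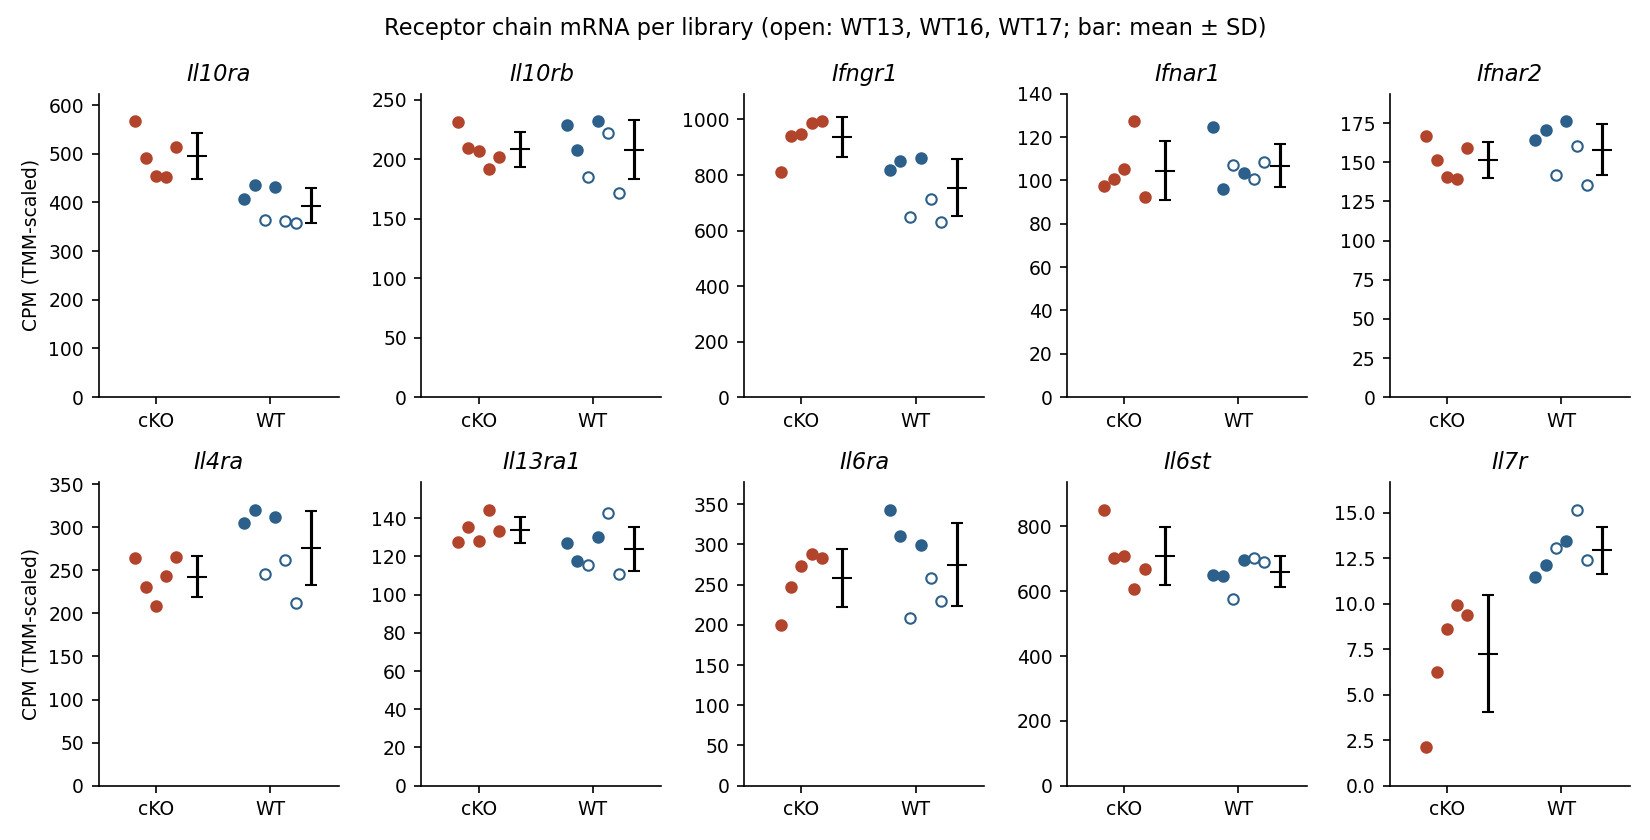
Level in CPM (TMM-scaled, linear axis from 0) of the 10 receptor chains, one point per library, with cKO libraries left of WT libraries; bars give mean ± SD (n = 5 cKO, n = 6 WT) and open points are WT13, WT16 and WT17. For Il10ra every cKO point lies above every WT point and for Il7r every cKO point lies below, while the other panels overlap.

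Levels between genes were compared per kilobase of annotated exon. Ifngr1 had the most mRNA, 329 ± 25.8 CPM per kb in cKO and 265 ± 36.1 CPM per kb in WT (SD, n = 5 and 6), and Il10ra followed with 142 ± 13.6 CPM per kb in cKO and 112 ± 10.4 CPM per kb in WT. Il6st, the gp130 chain, had 63.8 ± 8.10 CPM per kb in cKO and 59.4 ± 4.30 CPM per kb in WT. Below it lay Il10rb, Ifnar2, Il4ra, Il13ra1 and Il6ra, at cKO means of 54.7, 45.5, 40.4, 36.0 and 29.9 CPM per kb, against WT means of 54.6, 47.5, 46.0, 33.4 and 31.8 CPM per kb. Ifnar1 had 17.6 ± 2.29 CPM per kb in cKO and 18.0 ± 1.67 CPM per kb in WT. Il7r was lowest by far, with 1.55 ± 0.686 CPM per kb in cKO and 2.77 ± 0.276 CPM per kb in WT.

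Over all 11 libraries the ranges of neighbouring genes in this order did not overlap between Ifngr1 and Il10ra, Il10ra and Il6st, Il6ra and Ifnar1, or Ifnar1 and Il7r. Mean levels there differed 2.34-fold, 2.05-fold, 1.74-fold and 8.02-fold. From Il6st down to Il6ra each gene's range overlapped that of its neighbour, and neighbours differed between 1.07-fold and 1.26-fold in mean level. The order depends on the length used. With the longest protein-coding transcript as the length, a choice added after the data were seen, Il10rb had a mean of 113 CPM per kb. It then came before Il6st at 78.5 CPM per kb and close to Il10ra at 126 CPM per kb. No other place in the order changed, but the wide step below Il10ra holds only for annotated exon length.

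**Figure D2:**
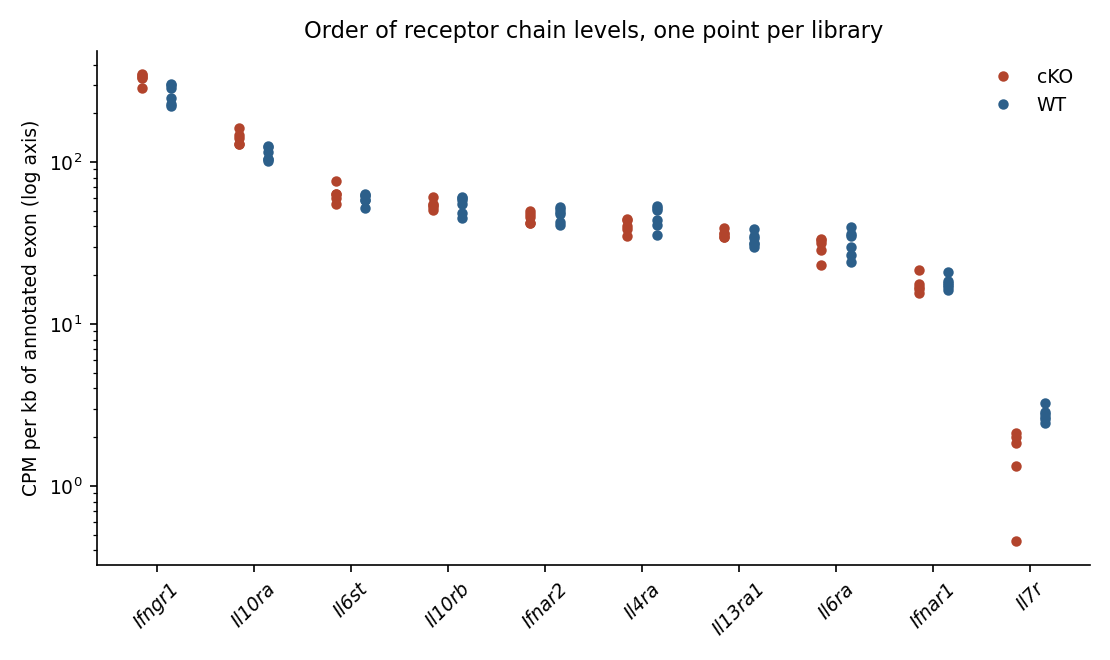
Level of each receptor chain in CPM per kb of annotated exon (log axis), one point per library, with cKO libraries left of WT libraries for each gene, ordered by mean level. By this length Ifngr1 and Il10ra stand above all others in every library, the chains from Il6st to Il6ra overlap their neighbours, and Il7r lies below every other chain.

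The IL-10 receptor is made of Il10ra, which binds IL-10, and Il10rb, the second chain. Il10ra (ENSMUSG00000032089, chromosome 9, 45253837 to 45269149, minus strand, build mm10) showed 567.1, 490.4, 454.2, 451.4 and 513.6 CPM in the 5 cKO libraries, against 406.5, 436.2, 363.3, 432.3, 362.7 and 358.0 CPM in the 6 WT libraries. All 5 cKO libraries lay above all 6 WT libraries, and the 3 lowest WT values were those of WT13, WT16 and WT17. Group means were 495 ± 47.7 CPM in cKO and 393 ± 36.4 CPM in WT (SD), a log2 fold change of 0.33 (SE 0.08, 95% interval 0.16 to 0.50, edgeR adjusted p = 0.0207). Of the 10 chains, 2 had groups that did not overlap, Il10ra and Il7r, against 4.16% of all tested genes (2.17% with cKO higher, as in Il10ra, and 1.99% with cKO lower, as in Il7r). Without WT13, WT16 and WT17 the groups of Il10ra still did not overlap, but the log2 fold change was 0.22 with an edgeR adjusted p of 0.154. Leaving out cKO2, cKO4, cKO7 or WT16 alone gave edgeR adjusted p-values of 0.0804, 0.0505, 0.0566 and 0.0585, and Il10ra passed in 15 of 20 alternative analyses.

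Il10rb (ENSMUSG00000022969, chromosome 16, 91406164 to 91425834, plus strand) did not follow its partner. It had 231.5, 209.2, 207.1, 192.1 and 202.1 CPM in the 5 cKO libraries, against 228.8, 208.2, 185.4, 232.2, 222.0 and 171.6 CPM in the 6 WT libraries. The groups overlapped almost fully, with means of 208 ± 14.5 CPM in cKO and 208 ± 24.7 CPM in WT (SD). The fold change was 0.00 on the log2 scale (SE 0.09, 95% interval -0.18 to 0.19, edgeR adjusted p = 0.994), and its sign changed in 9 of 20 alternatives. Within each library the ratio of Il10ra to Il10rb, per kilobase of annotated exon, was 2.39 to 2.77 in cKO and 1.78 to 2.28 in WT, with no overlap. The size of this ratio depends on the length used, which is the same for both groups. The mean ratio was 2.59 ± 0.142 in cKO and 2.07 ± 0.197 in WT (SD, n = 5 and 6), and the WT mean was 2.08 without WT13, WT16 and WT17. Partner ratios were computed after the single values had been seen and were not tested.

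The IFN-γ receptor pairs Ifngr1, which binds the cytokine, with Ifngr2, which carries the signal onward. Ifngr1 (ENSMUSG00000020009, chromosome 10, 19591949 to 19610229, plus strand) had 812.5, 940.7, 948.2, 988.1 and 994.1 CPM in the 5 cKO libraries, against 818.5, 849.3, 649.6, 861.4, 712.0 and 630.1 CPM in the 6 WT libraries. Of the cKO libraries, 4 lay above all WT libraries, while cKO2 lay below WT8, WT9 and WT15, and the lowest WT values were again those of WT13, WT16 and WT17. Means were 937 ± 73.3 CPM in cKO and 753 ± 103 CPM in WT (SD), a log2 fold change of 0.31 (SE 0.09, 95% interval 0.13 to 0.50, edgeR adjusted p = 0.0459). Without those 3 WT libraries the WT mean was 843 ± 22.1 CPM, the log2 fold change was 0.15 and the edgeR adjusted p was 0.361. Ifngr1 passed in 10 of 20 alternatives: it also missed the threshold on library totals (0.24, adjusted p = 0.0617), with neuronal and glial markers as a covariate (0.22, adjusted p = 0.0633), and without cKO4, cKO5, cKO6, cKO7, WT13, WT16 or WT17 alone (edgeR adjusted p of 0.0998, 0.109, 0.127, 0.112, 0.0884, 0.107 and 0.0841).

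Its partner Ifngr2 had 199 ± 18.8 CPM in cKO and 186 ± 24.0 CPM in WT (SD, n = 5 and 6), with a log2 fold change of 0.10 (SE 0.09, edgeR adjusted p = 0.651). The ratio of Ifngr1 to Ifngr2 per kilobase was 6.29 ± 0.911 in cKO and 5.39 ± 0.646 in WT (SD), and the groups overlapped. Like Il10ra and Ifngr1, the microglial marker sum was higher in cKO by group mean, at 26967 ± 843 CPM against 21992 ± 2092 CPM in WT (SD). The part of the microglial markers in either difference was not tested. With the neuronal, astrocyte and oligodendrocyte markers as a covariate, Il10ra had a log2 fold change of 0.26 and an edgeR adjusted p of 0.0257.

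By the likeness of profiles over the 11 libraries (root mean square difference of centred log2 CPM, among 9579 genes), Il10ra was most like Gal3st4 (0.0716), Fbxw8 (0.0722) and Gpc2 (0.0734), against a median of 0.298 over all candidates. Of these, Fbxw8 came nearest to the threshold itself, with 140 ± 8.33 CPM in cKO and 116 ± 6.62 CPM in WT (log2 fold change 0.28, edgeR adjusted p = 0.0504). Gal3st4 and Gpc2 had nearly the same values, 316 ± 31.5 and 319 ± 33.1 CPM in cKO against 269 ± 32.9 and 271 ± 32.5 CPM in WT. Whether the same reads were counted for both was not tested. Ifngr1 was most like Sqor (0.0633), Ikzf1 (0.0694) and Dip2b (0.0729), against a median of 0.306. Ikzf1, a zinc-finger transcription factor of blood cells, had 807 ± 63.8 CPM in cKO and 635 ± 67.4 CPM in WT (log2 fold change 0.34, edgeR adjusted p = 0.0154). These are descriptions over 11 shared libraries and carry no test. Whether the call of Ikzf1 holds without WT13, WT16 and WT17 is not given.

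The sequence just upstream of a gene's start shows which recognition motifs of this pathway lie there, and for 8 of the 10 chains such a window of 250 bases was present in RefSeq's promoter table (GRCm38.p6). The windows for Il10ra and Il10rb were not analysed here. Searched on both strands, the STAT dimer site GAS (TTCNNNGAA) was found in 7.02% of 32851 windows and, among these chains, in Ifnar2 and Il7r. The interferon-stimulated response element (GAAA, any 2 bases, GAAA) was found in 2.98% of windows and in none of these 8. The GC box (GGGCGG), the site of Sp factors, was found in 32.7% of windows and in Il4ra, Ifngr1, Il6st, Ifnar1 and Il13ra1. The windows of Ifngr1 (chr10:19591699-19591948, plus strand), which rose, and of the type I receptor chains Ifnar2 (chr16:91372533-91372782, plus strand) and Ifnar1 (chr16:91484965-91485214, plus strand), which did not pass, are given with the GAS of Il7r (chr15:9530000-9530028, minus strand), so that the interferon receptors and the chain with the largest difference can be read side by side. Capitals mark the GC boxes of Ifngr1 and Ifnar1 (CCGCCC is the box read on the other strand) and the GAS sites of Ifnar2 and Il7r, and no marked motif overlaps another.
Ifngr1: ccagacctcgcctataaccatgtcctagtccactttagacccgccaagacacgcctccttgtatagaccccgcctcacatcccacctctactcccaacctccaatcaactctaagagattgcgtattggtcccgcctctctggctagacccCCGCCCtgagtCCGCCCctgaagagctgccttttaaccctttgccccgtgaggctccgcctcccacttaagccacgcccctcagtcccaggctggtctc
Ifnar2: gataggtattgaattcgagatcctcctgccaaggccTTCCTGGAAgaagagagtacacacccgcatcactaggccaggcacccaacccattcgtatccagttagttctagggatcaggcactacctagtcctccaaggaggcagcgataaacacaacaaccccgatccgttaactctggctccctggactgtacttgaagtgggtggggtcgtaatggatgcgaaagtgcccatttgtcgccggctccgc
Ifnar1: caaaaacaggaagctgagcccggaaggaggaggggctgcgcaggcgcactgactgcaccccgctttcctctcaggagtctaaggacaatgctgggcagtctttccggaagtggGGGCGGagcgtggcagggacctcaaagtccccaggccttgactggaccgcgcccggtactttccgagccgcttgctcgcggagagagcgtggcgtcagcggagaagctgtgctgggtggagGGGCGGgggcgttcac
Il7r: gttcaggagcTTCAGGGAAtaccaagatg
The GAS of Ifnar2 begins 214 bases and that of Il7r 142 bases before the gene start in RefSeq's table. For Il7r the GENCODE gene model begins further upstream, at 9530176, so its GAS lies inside that model. The GENCODE model of Il4ra likewise begins within its window, at 125552120, so the GC box of Il4ra lies inside that model. The Ifngr1 window was 59.2% G or C, that of Ifnar2 54.0% and that of Ifnar1 65.6%, against a median of 52.4% over all windows. A match of letters is a description and shows no binding.

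The type I interferon receptor is formed by Ifnar1, which binds the kinase Tyk2, and Ifnar2, which binds Jak1. Ifnar1 (ENSMUSG00000022967, chromosome 16, 91485238 to 91507441, plus strand) had 97.46, 100.5, 105.3, 127.4 and 92.24 CPM in the 5 cKO libraries, against 124.9, 96.12, 107.0, 103.3, 100.6 and 108.5 CPM in the 6 WT libraries. The highest values in each group, cKO6 and WT8, were close to each other and the groups overlapped. Its log2 fold change was -0.03 (SE 0.10, 95% interval -0.23 to 0.17, edgeR adjusted p = 0.928).

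Ifnar2 (ENSMUSG00000022971, chromosome 16, 91372783 to 91405589, plus strand) had 166.5, 151.6, 140.9, 139.2 and 158.9 CPM in the cKO libraries, against 164.3, 170.9, 141.9, 176.3, 160.2 and 135.3 CPM in the WT libraries. The groups overlapped, and the 3 lower WT values were those of WT13, WT16 and WT17. Its log2 fold change was -0.06 (SE 0.09, 95% interval -0.24 to 0.12, edgeR adjusted p = 0.797). The ratio of Ifnar1 to Ifnar2 per kilobase was 0.391 ± 0.0778 in cKO and 0.382 ± 0.0572 in WT (SD).

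Ifnar2, Il10rb, Ifnar1 and Ifngr2 lie next to each other on chromosome 16 in that order, all on the plus strand. Ifnar2 ends 574 bases before Il10rb begins, 59.4 kb separate Il10rb from Ifnar1, and 39.6 kb separate Ifnar1 from Ifngr2. A further annotated gene, Gm21970 (91391721 to 91419451, plus strand), spans parts of both Ifnar2 and Il10rb. It had 68.2 ± 8.51 CPM in cKO and 66.5 ± 7.94 CPM in WT (SD), with a log2 fold change of 0.04 (SE 0.11, edgeR adjusted p = 0.92), and reads of all 3 may have been divided between them in counting. Il10rb and Ifnar2 were the pair of chains with the most similar profiles over the libraries (0.0752, as above), followed by Il4ra and Ifnar2 (0.108).

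**Figure D3:**
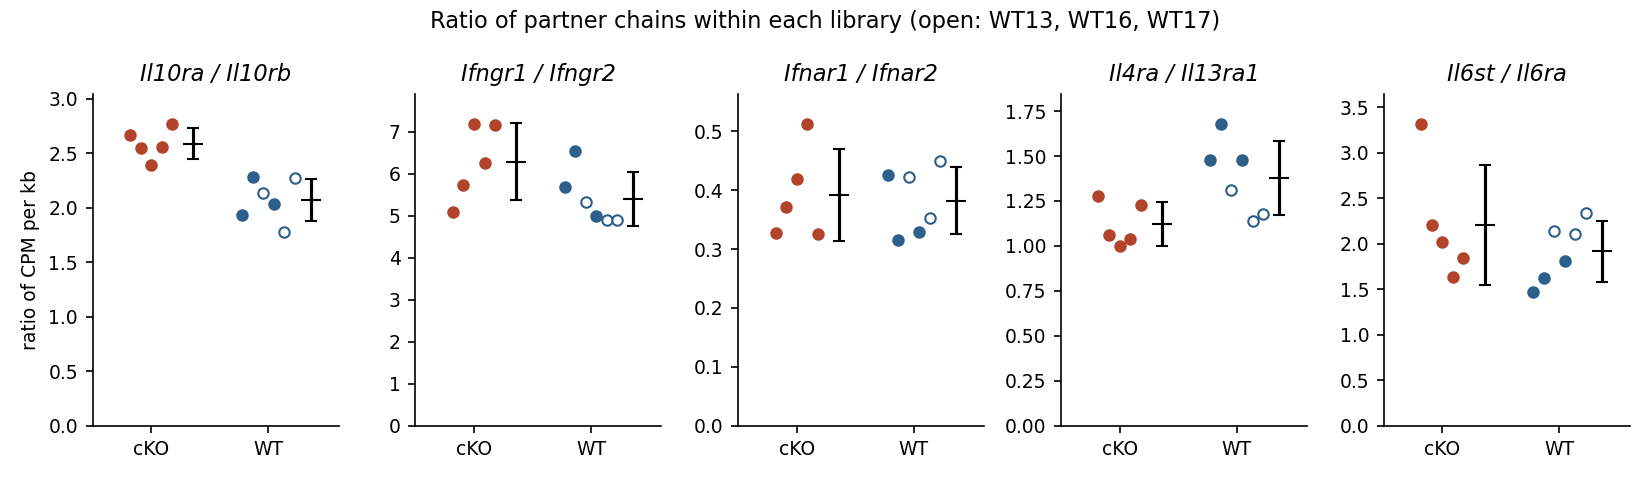
Ratio of the levels (CPM per kb) of the partner chains within each library, cKO libraries left of WT libraries, with mean ± SD (n = 5 cKO, n = 6 WT) and open points for WT13, WT16 and WT17. Of the 5 pairs shown, Il10ra over Il10rb has no overlap between the groups, at 2.39 to 2.77 in cKO against 1.78 to 2.28 in WT.

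Il4ra is the signalling chain for IL-4 and IL-13, and it pairs either with the common gamma chain Il2rg or with Il13ra1. Il4ra (ENSMUSG00000030748, chromosome 7, 125552120 to 125579474, plus strand) had 263.8, 231.1, 208.1, 243.3 and 265.2 CPM in the 5 cKO libraries, against 304.6, 320.4, 245.6, 311.4, 261.9 and 211.7 CPM in the 6 WT libraries. WT8, WT9 and WT15 lay above every cKO library, while WT13, WT16 and WT17 lay among them. Means were 242 ± 23.9 CPM in cKO and 276 ± 43.2 CPM in WT (SD), and the log2 fold change of -0.19 (SE 0.10, 95% interval -0.40 to 0.02) had an edgeR adjusted p of 0.341. Without WT13, WT16 and WT17 the WT mean was 312 ± 7.95 CPM and Il4ra was past the threshold as lower in cKO (log2 fold change -0.37, SE 0.08, edgeR adjusted p = 0.0057). It also passed with the neuronal and glial markers as a covariate (-0.32, edgeR adjusted p = 0.00944), and in neither of these did Ifngr1 pass.

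Il13ra1 (ENSMUSG00000017057, chromosome X, 36112110 to 36171259, plus strand), which binds IL-13, had 127.5, 135.3, 128.1, 144.5 and 133.5 CPM in the cKO libraries, against 126.9, 117.8, 115.7, 130.4, 142.5 and 110.6 CPM in the WT libraries. All cKO values lay above 4 of the 6 WT values, and the groups overlapped through WT15 and WT16. The fold change on the log2 scale was 0.11 (SE 0.09, 95% interval -0.07 to 0.29, edgeR adjusted p = 0.557). The ratio of Il4ra to Il13ra1 per kilobase was 1.12 ± 0.123 in cKO and 1.38 ± 0.207 in WT (SD), with overlap, and the WT mean was 1.55 without WT13, WT16 and WT17.

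The other partner, Il2rg, fell in cKO. It had 2.99, 2.36, 3.01, 2.34 and 2.89 CPM in the 5 cKO libraries, against 14.93, 10.83, 12.50, 11.74, 5.40 and 8.27 CPM in the 6 WT libraries, and the groups did not overlap. The level was 3.9-fold lower in cKO (log2 fold change -1.96, SE 0.29, edgeR adjusted p = 0.000141) and passed in all 20 alternatives. The ratio of Il4ra to Il2rg per kilobase was 27.5 to 41.4 in cKO and 7.81 to 19.3 in WT, with no overlap.

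Il6ra binds IL-6, and Il6st (gp130) then carries the signal. Il6ra (ENSMUSG00000027947, chromosome 3, 89864059 to 89913196, minus strand) had 199.8, 247.5, 273.5, 288.0 and 283.5 CPM in the cKO libraries, against 343.2, 309.9, 208.8, 299.6, 258.3 and 229.5 CPM in the WT libraries. WT8, WT9 and WT15 were again the highest and WT13, WT16 and WT17 lay within the cKO range. The fold change was -0.09 on the log2 scale (SE 0.12, 95% interval -0.34 to 0.16, edgeR adjusted p = 0.788), and without those 3 libraries it was -0.30 (edgeR adjusted p = 0.0838).

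Il6st (ENSMUSG00000021756, chromosome 13, 112464070 to 112510086, plus strand) had 852.0, 701.5, 708.5, 608.2 and 668.4 CPM in the cKO libraries, against 649.9, 645.7, 575.2, 696.4, 701.1 and 689.8 CPM in the WT libraries. The highest value was that of cKO2, the same library that was lowest of its group for Ifngr1 and Il6ra, and the groups overlapped. The fold change on the log2 scale was 0.10 (SE 0.08, 95% interval -0.07 to 0.27, edgeR adjusted p = 0.591). The ratio of Il6st to Il6ra per kilobase was 2.20 ± 0.658 in cKO and 1.92 ± 0.336 in WT (SD), with overlap.

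In 5 of the 10 chains (Il10ra, Ifngr1, Ifnar2, Il4ra and Il6ra) WT13, WT16 and WT17 all lay below WT8, WT9 and WT15, against 12.2% of all tested genes. Without these 3 libraries the median log2 fold change of the 10 chains was -0.08, against 0.00 over all genes, and 1 chain was called, Il4ra, in place of Il10ra and Ifngr1, against 3.21% of all tested genes (2.21% lower). On library totals Il10ra alone was called, against 5.02% of all tested genes. The split follows no label in the sources used here.

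**Figure D4:**
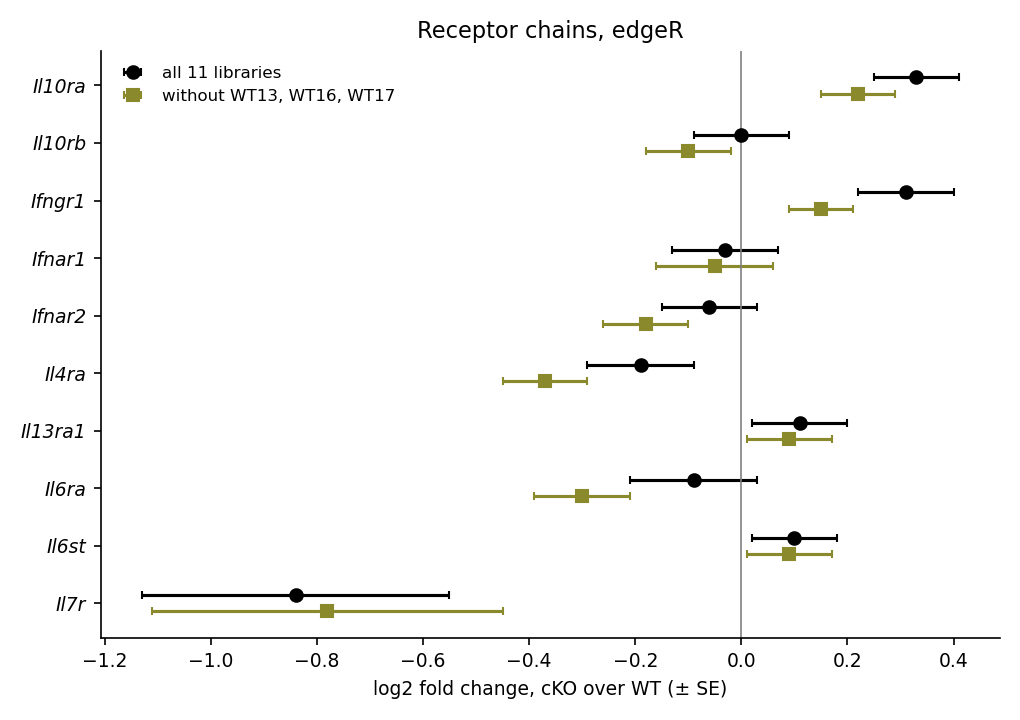
Log2 fold change of each receptor chain, cKO over WT, from edgeR (points, with SE as bars), with all 11 libraries in black and without WT13, WT16 and WT17 in olive. The values of Il10ra and Ifngr1 move from 0.33 to 0.22 and from 0.31 to 0.15 without these libraries, and that of Il4ra from -0.19 to -0.37.

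Il7r, the chain that binds IL-7 and is known best from lymphocytes, was the lowest of the 10. Il7r (ENSMUSG00000003882, chromosome 15, 9505788 to 9530176, minus strand) had 2.12, 6.22, 8.61, 9.94 and 9.36 CPM in the 5 cKO libraries, against 11.47, 12.14, 13.05, 13.45, 15.16 and 12.37 CPM in the 6 WT libraries. Every cKO library lay below every WT library, and cKO2 was lowest of all. It differed by a log2 fold change of -0.84 (SE 0.29, 95% interval -1.43 to -0.24, unadjusted p = 0.00806), and the edgeR adjusted p was 0.108, so the difference was not past the threshold. It ran from -1.03 to -0.60 over 20 alternatives, with adjusted p-values of 0.0608 to 0.334, and was -0.60 without cKO2.

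The counts behind these values were 68 to 570 per library for Il7r, while each of the other 9 chains had at least 3009 counts in every library. Lymphocyte markers were scarce: 6 of 12 were at 0 in every library, among them Cd3d, Cd3g, Cd2, Ms4a1 and Trac. Their summed level was 15.7 to 31.4 CPM in cKO and 13 to 25.8 CPM in WT, and nearly all of it was Cd79b, at up to 31.42 CPM in cKO and up to 25.81 CPM in WT. Cd3e was at 0 in all libraries except WT15, which had 0.15 CPM. The ratio of Il7r to its partner Il2rg per kilobase was 1.40 ± 0.661 in cKO and 0.715 ± 0.373 in WT (SD), with overlap.

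Around the 10 chains, 120 other genes of the same signalling system were listed, of which 86 were tested. Of these, 4 rose and 12 fell in cKO. The lists were chosen with earlier results of these data known, so their called shares and medians below carry no test. Among the 30 other receptor chains of these families, 17 could be tested: 1 rose and 4 fell, or 29.4% called against 4.29% of all genes, with a median log2 fold change of -0.31 against -0.01 over all genes. Lifr, which pairs with Il6st to receive LIF, rose, with 79.88, 72.11, 106.3, 116.8 and 94.68 CPM in the 5 cKO libraries, against 40.57, 53.10, 57.03, 51.19, 59.01 and 55.16 CPM in the 6 WT libraries. The groups did not overlap, and the log2 fold change was 0.83 (SE 0.12, edgeR adjusted p = 0.000157).

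Besides Il2rg, the chains that fell were those of myeloid growth factors. Csf2rb, the shared chain of the GM-CSF and IL-3 receptors, had 81.9 ± 11.8 CPM in cKO and 127 ± 17.4 CPM in WT (SD), a log2 fold change of -0.63 (SE 0.11, edgeR adjusted p = 0.00114). Its mouse paralog Csf2rb2, specific to IL-3, had 40.8 ± 8.10 CPM in cKO and 88.8 ± 16.8 CPM in WT (-1.12, SE 0.14, edgeR adjusted p = 4.07e-05). In both genes all cKO libraries lay below all WT libraries, but the paralogs are nearly identical, so reads could have been divided between them. Csf3r, the G-CSF receptor, had 215 ± 31.6 CPM in cKO and 273 ± 24.4 CPM in WT (-0.35, SE 0.09, edgeR adjusted p = 0.032), with overlap through cKO2, and passed in 13 of 20 alternatives. It missed the threshold without cKO4, cKO5, cKO6, cKO7, WT9, WT15 or WT16 (edgeR adjusted p of 0.0987, 0.0965, 0.106, 0.0799, 0.0605, 0.0527 and 0.0566). Il21r, the receptor for IL-21 and the partner of Il2rg there, had 155 ± 16.8 CPM in cKO and 164 ± 21.4 CPM in WT (edgeR adjusted p = 0.724).

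Most of the cytokine genes could not be tested. Of 20 ligands, 8 were listed at 0 in every library (Il10, Clcf1, Il22, Ifng, Ifnb1, Ifna2, Ifna4 and Ifne), 5 more were too low to test, and 7 were tested, of which 1 fell (14.3% against 4.29% of all tested genes, median log2 fold change -0.86 against -0.01). That median was the value of a gene with very low counts, 0.504 ± 0.91 CPM in cKO and 0.918 ± 0.976 CPM in WT (SD), and had an SE of 1.39. The gene that fell was Ebi3, a subunit of IL-27 and of IL-35. It had 4.24, 5.10, 2.31, 6.14 and 7.34 CPM in the 5 cKO libraries, against 35.22, 29.63, 25.23, 33.56, 27.12 and 27.18 CPM in the 6 WT libraries. The groups were far apart, and the level was 5.89-fold lower in cKO (log2 fold change -2.56, SE 0.23, edgeR adjusted p = 2.78e-07). Il27, the other subunit of IL-27, had 1.90 ± 0.985 CPM in cKO and 2.79 ± 0.744 CPM in WT (edgeR adjusted p = 0.652). Osm, a ligand that signals through Il6st, had 9.91 ± 0.327 CPM in cKO and 12.7 ± 2.21 CPM in WT (edgeR adjusted p = 0.353). A count of 0 is a listed value only, since 17296 genes of the table were at 0 throughout.

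Of 12 Janus kinases, STAT and partner factors, 11 were tested and 1 fell (9.09% against 4.29% of all tested genes, median log2 fold change -0.08 against -0.01). Tyk2, the kinase bound to Ifnar1 and Il10rb, had 59.5 ± 4.79 CPM in cKO and 77.3 ± 9.99 CPM in WT (SD), with no overlap and a log2 fold change of -0.38 (SE 0.10, edgeR adjusted p = 0.0407). Tyk2 passed in 9 of 20 alternatives, missed the threshold with limma-voom and with the marker covariate, and had an adjusted p of 0.151 without WT13, WT16 and WT17 (log2 fold change -0.31). Leaving out cKO2, cKO4, cKO5, cKO6, WT9, WT13, WT16 or WT17 alone gave edgeR adjusted p-values of 0.113, 0.0719, 0.0936, 0.106, 0.0694, 0.0895, 0.051 and 0.0548. Stat3, the main STAT of IL-10 and IL-6, had 228 ± 13.9 CPM in cKO and 202 ± 13.9 CPM in WT (edgeR adjusted p = 0.216). Stat6, that of IL-4 and IL-13, had 228 ± 18.7 CPM in cKO and 209 ± 31.8 CPM in WT (edgeR adjusted p = 0.55).

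Of 17 feedback inhibitors, 1 rose and 1 fell (11.8% against 4.29% of all tested genes, median log2 fold change 0.08 against -0.01). Ptpn1, a phosphatase that acts on Jak2 and Tyk2, rose, with 590.5, 559.3, 532.8, 556.2 and 547.2 CPM in the 5 cKO libraries, against 463.0, 446.5, 370.6, 457.5, 373.2 and 348.4 CPM in the 6 WT libraries. All cKO values lay above all WT values, and the log2 fold change was 0.44 (SE 0.08, edgeR adjusted p = 0.00238). Without WT13, WT16 and WT17 it was 0.28 (edgeR adjusted p = 0.00772), a change of over 1.5 times that kept the call. Ptpn6, the SHP-1 phosphatase, had 163 ± 16.4 CPM in cKO and 207 ± 26.6 CPM in WT (-0.35, SE 0.10, edgeR adjusted p = 0.0401), with overlap. It passed in 11 of 20 alternatives, and missed the threshold with limma-voom and without cKO4, cKO5, cKO6, cKO7, WT8, WT9, WT15 or WT16 (edgeR adjusted p of 0.0935, 0.119, 0.121, 0.0807, 0.0697, 0.0964, 0.0521 and 0.0605). The most abundant others were Ptpn11, the SHP-2 phosphatase, with 275 ± 18.4 CPM in cKO and 246 ± 20.2 CPM in WT (edgeR adjusted p = 0.294), and Socs7, with 101 ± 4.79 CPM in cKO and 105 ± 11.2 CPM in WT (edgeR adjusted p = 0.803).

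Of 19 interferon target genes, 3 fell, or 15.8% against 4.29% of all tested genes called in either direction and 2.43% called lower, and 16 did not pass. Over the 19 genes the median log2 fold change was -0.44, against -0.01 over all genes, with 15 negative and 4 positive. Ifit3, an antiviral gene induced by type I interferon, had 8.73, 7.20, 11.09, 6.29 and 8.28 CPM in the 5 cKO libraries, against 18.43, 17.49, 23.49, 26.71, 22.62 and 17.44 CPM in the 6 WT libraries. The groups did not overlap, and the level was 2.53-fold lower in cKO (log2 fold change -1.34, SE 0.20, edgeR adjusted p = 0.000164). Ifit2, of the same family, had 3.09 ± 1.13 CPM in cKO and 8.10 ± 2.18 CPM in WT (-1.39, SE 0.31, edgeR adjusted p = 0.00982), and both genes passed in all 20 alternatives.

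Irf7, the factor that amplifies type I interferon, had 4.06 ± 1.12 CPM in cKO and 8.94 ± 2.70 CPM in WT (-1.14, SE 0.29, edgeR adjusted p = 0.0236). It missed the threshold with WT13, WT16 and WT17 left out (-0.82, edgeR adjusted p = 0.306) and without cKO2, cKO4, cKO5 or WT16 alone (0.0644, 0.0621, 0.0674 and 0.0791). It also missed it with limma-voom (-1.11, adjusted p = 0.0652) and with the neuronal and glial markers as a covariate (-0.99, edgeR adjusted p = 0.0629), and passed in 13 of 20 alternatives. Irf8, a factor of the microglial lineage that IFN-γ also induces, had 633 ± 25.7 CPM in cKO and 731 ± 103 CPM in WT (-0.21, edgeR adjusted p = 0.201), and was past the threshold as lower with WT13, WT16 and WT17 left out (-0.38, edgeR adjusted p = 0.000326).

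Of 13 listed targets of IL-10 and IL-6, 1 rose and 1 fell (15.4% against 4.29% of all tested genes, median log2 fold change -0.17 against -0.01). Nfil3, a transcription factor, had 19.2 ± 2.94 CPM in cKO and 11.5 ± 2.57 CPM in WT (0.73, SE 0.20, edgeR adjusted p = 0.0324), with no overlap. It missed the threshold with WT13, WT16 and WT17 left out (0.53, edgeR adjusted p = 0.223) and without cKO5, cKO6, cKO7, WT9, WT16 or WT17 alone (0.0837, 0.0643, 0.0976, 0.0555, 0.078 and 0.0587). It also missed it on library totals (0.65, edgeR adjusted p = 0.0506) and with the marker covariate (0.67, edgeR adjusted p = 0.076), and passed in 11 of 20 alternatives. Bcl3, a nuclear partner of NF-κB, had 1.71 ± 1.13 CPM in cKO and 6.29 ± 3.57 CPM in WT (-1.88, SE 0.48, edgeR adjusted p = 0.0251), again with no overlap. It missed the threshold without WT13, WT16 and WT17 (log2 fold change -1.80, edgeR adjusted p = 0.0586), with limma-voom (adjusted p = 0.104) and without cKO5, cKO6, cKO7, WT9 or WT13 alone (0.0688, 0.0647, 0.0705, 0.0635 and 0.0793). Zfp36, which destabilises cytokine mRNA, had 93.7 ± 12 CPM in cKO and 98.5 ± 14.1 CPM in WT (edgeR adjusted p = 0.814). Junb had 149 ± 6.77 CPM in cKO and 187 ± 30.0 CPM in WT (-0.33, edgeR adjusted p = 0.0677). It passed in 6 of 20 alternatives, among them the one that leaves out WT13, WT16 and WT17 (-0.49, edgeR adjusted p = 0.000277).

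Of 15 listed targets of IL-4 and IL-13, 8 were tested: 1 rose and 1 fell (25% against 4.29% of all tested genes, median log2 fold change 0.35 against -0.01). That median lies between 0.34 (SE 0.87) and 0.36 (SE 1.46), values of genes with very low counts (cKO means of 1.22 and 0.343 CPM). Tgm2, transglutaminase 2, had 61.58, 33.09, 54.94, 61.85 and 37.26 CPM in the 5 cKO libraries, against 379.8, 355.1, 347.0, 355.9, 298.1 and 239.5 CPM in the 6 WT libraries. No cKO library came near a WT library, and the level was 6.62-fold lower in cKO (log2 fold change -2.73, SE 0.19, edgeR adjusted p = 1.15e-06). Klf4, a zinc-finger factor, had 7.76, 15.64, 39.54, 38.56 and 26.57 CPM in the cKO libraries, against 5.24, 5.93, 11.63, 4.71, 4.82 and 4.87 CPM in the WT libraries. The groups overlapped through cKO2 and WT13, and the log2 fold change was 2.04 (SE 0.38, edgeR adjusted p = 0.00644). Klf4 passed in 18 of 20 alternatives, and missed the threshold with limma-voom (1.81, adjusted p = 0.0802) and when WT13, WT16 and WT17 were left out (2.27, edgeR adjusted p = 0.0548). Il4i1 had 18.1 ± 4.62 CPM in cKO and 13 ± 2.52 CPM in WT (edgeR adjusted p = 0.216). Cish, a feedback inhibitor that is also a STAT target, was low, at 1.88 ± 1.15 CPM in cKO and 2.51 ± 1.24 CPM in WT (edgeR adjusted p = 0.844).

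**Figure D5:**
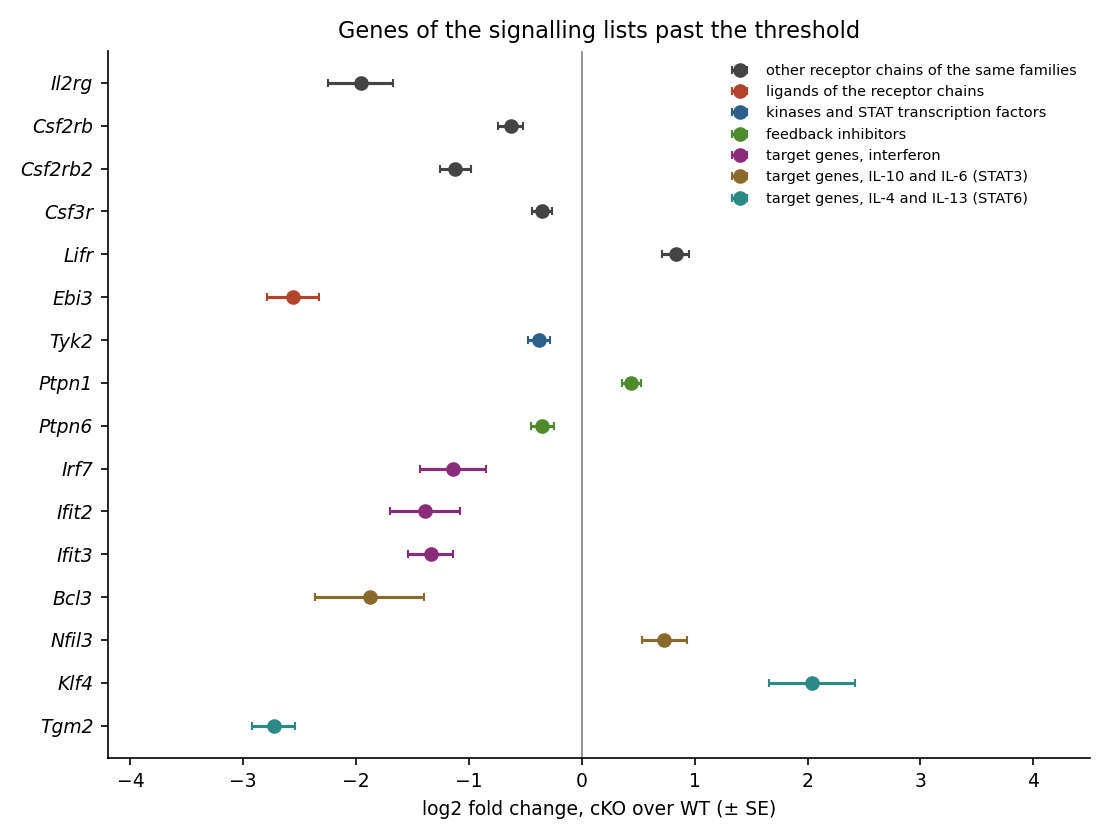
Log2 fold change, cKO over WT, of the 16 genes of the signalling lists that were past the threshold in edgeR with all 11 libraries (points, with SE as bars), coloured by list. The 4 that rose are Lifr, Ptpn1, Nfil3 and Klf4, and the lowest is Tgm2 at -2.73.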

How the data were processed

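RNA from tagged microglial ribosomes of spinal cord was compared between 5 cKO and 6 WT libraries. Per the labels' protocols, a Direct-zol kit was used for RNA and a stranded KAPA kit with mRNA enrichment for sequencing libraries. Per the submitters' processing notes, bcl2fastq 2.17, FastQC, Trimmomatic and mm10 were used; which aligner, counting tool, strand rule and annotation were used is not given in the sources used here. What the authors deposited is a table of raw read counts for 39017 Ensembl genes in 11 libraries, with no normalization that the values show. Between 73.5 and 83.9% of low counts (1 to 200) per library were even numbers, as arises when both mates of a read pair are counted, in which case counting errors are larger than the counts imply. Library totals were 28620584 to 40943004, with 68 to 570 counts per library for Il7r and at least 3009 for each other chain.

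Symbols were matched for 37607 genes, and coordinates and exon lengths are those of GENCODE M21 (mm10). After filterByExpr (minimum count 10 and minimum total 15) 16025 genes remained, and TMM factors were applied. Genotype alone was tested with the quasi-likelihood F test of edgeR (R 4.3.3, edgeR 4.0.16, limma 3.58.1), two-sided, with Benjamini-Hochberg adjustment over all tested genes and a threshold of 0.05. The procedure was also run on simulated counts. These held no split among WT libraries, so they cannot speak to calls that depend on WT13, WT16 and WT17. CPM values are TMM-scaled and intervals are 95%. Alternatives were DESeq2 1.42.0, limma-voom, other scaling and filters, leaving out each library, leaving out WT13, WT16 and WT17, and a covariate of neuronal and glial markers. The closest pair of one group, WT8 and WT15, differed by a chi-square of 17.8 per gene. The labels do not say in so many words that each library is a separate animal, so p-values measure the spread between these libraries.

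The receptor chains and all lists were chosen with earlier results of these data known, so no p-value adjusted over a list alone is given. Named are the 10 chains, every gene of a signalling list past the threshold (up to 6) with the most abundant others as values, Kdm6a, and the 3 genes most like each chain past the threshold. A few listed genes are not reported here individually and count only towards list totals and medians.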

Additional observations from a re-analysis of the deposited data

Results flagged for a closer look

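Of 80 groups of values examined (40 named genes in both genotypes), 4 held a library far from the rest of its group, and chance alone gives about 1 in 20, here 4. Ifngr1 in cKO2 was low, at 812.5 CPM against 940.7 to 994.1 CPM in the other cKO libraries (gap over range 0.726). Csf3r in cKO2 was high, at 270.5 CPM against 194.1 to 205.9 CPM in the other cKO libraries (0.822). Cish in cKO2 was low, at 0.00 CPM against 1.87 to 2.87 CPM in the other cKO libraries (0.893). Klf4 in WT13 was high, at 11.63 CPM against 4.71 to 5.93 CPM in the other WT libraries (0.746). Of these 4 values, 3 belong to cKO2, which was also the lowest library for Il7r.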

How the results depend on the processing

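The number of receptor chains past the threshold was 2 with all libraries, 1 on library totals (Il10ra) and 1 without WT13, WT16 and WT17 (Il4ra, 0 shared with the 2 above), and 0 to 2 when single libraries were left out. Il10rb changed sign with RLE scaling (-0.00021), library totals (-0.08), DESeq2 (-0.0001), without WT13, WT16 and WT17 (-0.10) and with the marker covariate (-0.10), and ran from -0.05 to 0.04 without single libraries. Ifnar1 ran from -0.11 to 0.02 without single libraries. Stat6 changed sign without WT13, WT16 and WT17 (-0.05), and Socs7 did so there (0.02) and with the covariate (0.01). All these values are log2 fold changes near 0, and the cause was not tested. The other chains and the 16 called signalling genes kept their direction in the alternatives run. The count of called signalling genes ran from 11 to 21. Over all genes, edgeR called 298 higher and 389 lower, library totals 203 and 601 (median log2 fold change -0.10), and DESeq2 called 1225 genes in all. No paired analysis was possible because the 2 genotypes share no replicate number. With counts halved Il7r stayed at -0.84 (edgeR adjusted p = 0.0988), and without cKO2 it was -0.60.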
